A study of Homo sapiens with 4 samples.

Results

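The caveolae coat genes measured here were the caveolins CAV1 and CAV2, the cavins PTRF, SDPR and PRKCDBP, and the ATPase gene EHD2, which are 6 of the 27274 gene names on a 1-colour Agilent expression array. They were taken by gene name, with every array probe of each name, which gave 9 of the 34127 gene probes and 27 spots per array. PTRF, SDPR and PRKCDBP are the names of the array design for the genes now called CAVIN1, CAVIN2 and CAVIN3.

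Caveolae are small, cholesterol-rich pits of the plasma membrane. Caveolins are inserted in the membrane and form the inner coat, cavins are soluble proteins that are recruited to it and stabilise the pit, and EHD2 assembles at the neck and holds the pit at the surface. Caveolin-1 and cavin-1 (PTRF) are both needed to shape the pit outside muscle, and caveolin-1 without cavins lies in flat membrane. CAV1 binds cholesterol, and PC3 cells are known as a prostate cancer line that makes caveolin-1 while LNCaP cells make little.

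Total RNA was measured in LNCaP cells, which respond to androgen, and in PC3 cells, which do not depend on it. Each line was measured without treatment (control) and after 24 h with 10 µM atorvastatin (ATO), a statin that blocks HMG-CoA reductase and so the synthesis of cholesterol. There were 4 groups with 1 array each, both lines were grown in the same medium with serum, the controls are labelled as untreated with no vehicle named, and each line stands for itself only. No spread between cultures could be measured, so a difference within a line or between a pair of arrays has no replicate check.

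All 4 arrays shared 1 slide, read in 1 scan. Between 48.5% and 52.9% of gene spots were well above background, and no spot was saturated. In both comparisons of the lines, the LNCaP markers KLK3, KLK2 and TMPRSS2 were at least 2-fold higher in LNCaP, and 3 of 3 PC3 markers (VIM, CD44, AXL) at least 2-fold higher in PC3, so the arrays carried the marker genes of their labels. The position of an array on the slide cannot be told apart from its group.

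The caveolin and PTRF values rest on a handful of 60-base probes, so sequences of these are given first, from 5′ to 3′ on the strand of the gene, with their place on the hg18 build that the array design uses. Exon, intron or UTR is not given, since no annotation of that build was used here. CAV1 had a probe with 1 spot at chr7:115986237-115986296 on the plus strand, and a probe with 10 spots that starts 1741 bases further on at chr7:115987978-115988037, of which the first 30 bases are shown. The CAV2 probe with 10 spots lies at chr7:115927625-115927684 on the plus strand. PTRF had 2 probes, named probe 1 and probe 2 here, of which probe 2 lies at chr17:37808003-37808062 on the minus strand, with its first 30 bases shown. Capitals would mark bases that aligned with probes of at least 3 other genes on the array, and the runs shown have none.
CAV1, 1 spot: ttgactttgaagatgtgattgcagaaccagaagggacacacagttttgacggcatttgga
CAV1, 10 spots: attcctcctgctcatattgtgattctcact
CAV2, 10 spots: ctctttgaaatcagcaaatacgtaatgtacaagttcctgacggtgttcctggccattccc
PTRF, probe 2: cttggggaacctctcacgttgctgtgtcct

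Every gene probe was aligned with every other on both strands, with at least 25 aligned bases required. PTRF probe 1 aligned with 7 probes of other genes, and the other 8 probes of the coat genes with 0. Of all gene probes 6.51% aligned with at least 1 probe of another gene, and 0.557% with as many as 7.

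The remaining probes were a second, 1-spot CAV2 probe at chr7:115935497-115935556 (plus strand, 21.7% G and C), SDPR at chr2:192408347-192408406 (minus), PRKCDBP at chr11:6296786-6296845 (minus) and EHD2 at chr19:52938036-52938095 (plus).

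Values are processed intensities as the scanner software gives them, in arbitrary units on a linear scale, and a probe is called well above background where over 50% of its spots pass the software's call. The lowest intensity so called on an array was 27.4 in LNCaP control and 54.7 in LNCaP ATO, against 52.1 in PC3 control and 53.8 in PC3 ATO. An intensity under these has no measured level, only a bound. Levels of different probes cannot be set against each other, and a lower value may mean fewer cells with the RNA or less RNA per cell, which cannot be told apart.

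**Figure D1:**
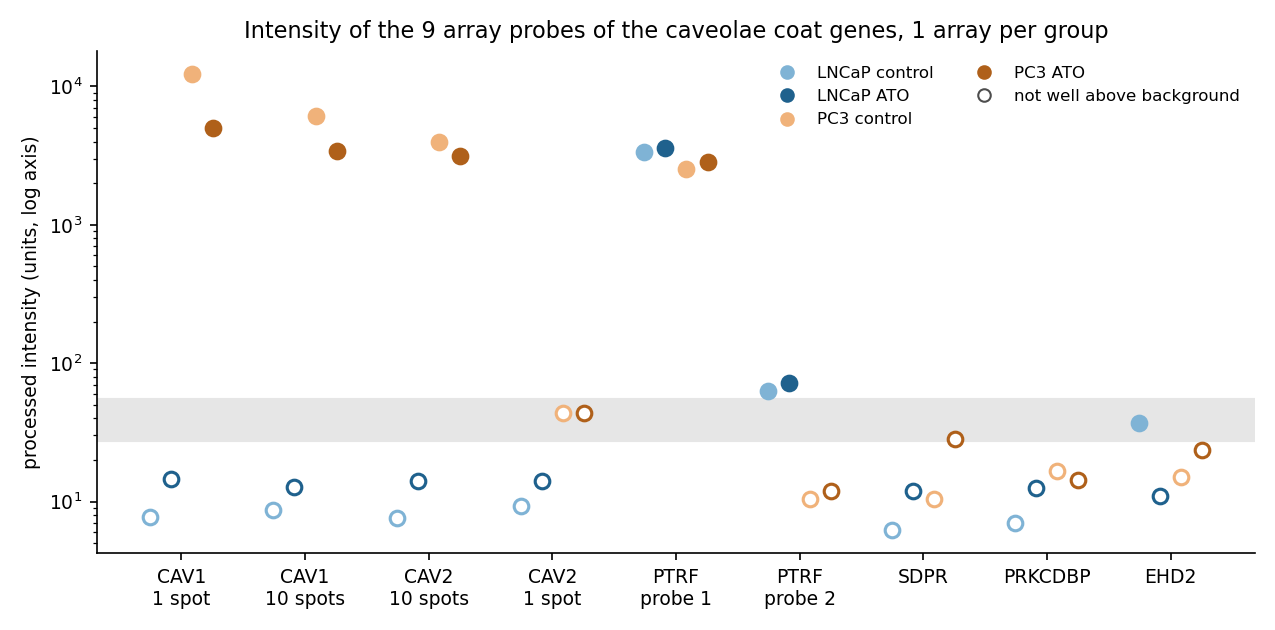
Processed intensity (log axis, arbitrary units) of the 9 probes on the 4 arrays, 1 point per array, with the mean over spots for probes with 10. Open points were not well above background, and the grey band spans the lowest intensities called well above background, from 27.4 to 54.7. The CAV1 and CAV2 probes with filled points are filled in PC3 only, PTRF probe 1 is filled on all 4 arrays, and PTRF probe 2 in LNCaP only.

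CAV1 encodes the main structural protein of caveolae outside muscle. Its 1-spot probe read 7.78 in LNCaP control and 14.5 in LNCaP ATO, against 12387 in PC3 control and 5019 in PC3 ATO. The software's error for the PC3 spots was 1239 and 502 units. CAV1 was thus well above background on both PC3 arrays and on neither LNCaP array, where the software had put a surrogate in place of the signal.

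The 10-spot CAV1 probe read 8.73 ± 4.07 units in LNCaP control (SD, n = 10 spots) and 12.8 ± 1.23 in LNCaP ATO (n = 9), against 6082 ± 337 in PC3 control (n = 7) and 3421 ± 175 in PC3 ATO (n = 10). Spots with an outlier call were left out, 1 in LNCaP ATO at 68.6 units and 3 in PC3 control. Its calls were those of the 1-spot probe. These SDs describe spots of 1 RNA sample on 1 array and say nothing of the spread between cultures.

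CAV2 encodes caveolin-2, which needs caveolin-1 to leave the Golgi and joins it in the coat. Its 10-spot probe read 7.58 ± 2.79 units in LNCaP control (n = 10 spots) and 14.1 ± 4.73 in LNCaP ATO (n = 10), against 3952 ± 190 in PC3 control (n = 9) and 3168 ± 117 in PC3 ATO (n = 10). CAV2 had the calls of CAV1 on every array. Its 1-spot probe was not well above background on any array, with 9.31, 14.0, 43.7 and 43.9 units in the same order of groups. The PC3 values of that probe lay above its LNCaP values, and each lay under the lowest intensity called on its array.

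PTRF encodes cavin-1, the cavin without which no caveolae form. Its probe 1 read 3341 units in LNCaP control and 3582 in LNCaP ATO, against 2548 in PC3 control and 2864 in PC3 ATO, and was well above background on all 4 arrays. Its probe 2 read 63.3 and 71.3 units in the LNCaP groups, where it was well above background, and 10.5 and 12 in the PC3 groups, where it was not. The probes of PTRF therefore gave different pictures of PC3, a level well above background by probe 1 and no measured level by probe 2. Among 2451 genes with at least 2 probes well above background on both LNCaP arrays, 175 (7.14%) had such a split in PC3, with a probe above background on both PC3 arrays beside a probe above it on neither. Probe 1, which aligned with 7 probes of other genes, stands for PTRF in the gene counts and fits below unless stated. Which transcripts it bound was not tested, and a PC3 level of PTRF rests on that probe alone.

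SDPR, which encodes cavin-2, read 6.19 units in LNCaP control and 11.9 in LNCaP ATO, against 10.5 in PC3 control and 28.4 in PC3 ATO, and was well above background on none of them. PRKCDBP encodes cavin-3, first known as a protein that binds protein kinase C delta. It read 7.04, 12.6, 16.7 and 14.3 units in the same order and was not well above background on any array either. For both genes no difference between groups was detectable on these arrays.

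EHD2, the ATPase of the neck, read 36.9 units in LNCaP control and 10.9 in LNCaP ATO, against 15.0 in PC3 control and 23.6 in PC3 ATO. It was well above background in LNCaP control alone, and 36.9 lies under the lowest intensity called on each of the other 3 arrays. No fold is given for EHD2, because its bound was under 1-fold in each comparison where it had one.

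The control arrays were set against each other to ask how the lines differ before treatment. To do so each value was divided by the 75th percentile of its array, the brightest probe stood for a gene, and a gene was counted where it was at least 2-fold apart. Where a line was not well above background, the other line was set against the lowest level called on that array, so the fold is a lower bound. By that measure 2 of the 4 coat genes with a value differed, CAV1 and CAV2, both higher in PC3. Over the whole array 39.6% of 15237 genes differed either way and 20.6% were higher in PC3.

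By its 1-spot probe, CAV1 in PC3 control exceeded LNCaP control at least 382-fold, and at least 188-fold by its 10-spot probe. CAV2 was at least 122-fold higher. PTRF probe 1 was 1.55-fold lower in PC3, which did not reach 2-fold, and probe 2 at least 1.44-fold lower.

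The ATO arrays hold the same contrast on the other pair of arrays. CAV1 in PC3 exceeded LNCaP at least 85.9-fold by the 1-spot probe and at least 58.5-fold by the 10-spot probe, and CAV2 at least 54.2-fold. PTRF probe 1 was 1.34-fold lower and probe 2 at least 1.42-fold lower. Of 3 coat genes with a value, 2 were thus higher in PC3, against 39.3% of 14148 genes apart either way and 17.9% higher in PC3. The LNCaP ATO spot of the 1-spot CAV1 probe had a local background of 206 units, over 1.5 times the array's median, while the spots of the 10-spot probe did not.

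The line was tested over all 4 arrays with treatment as a block, in limma with 1 residual degree of freedom. Measured values were used for genes well above background on both arrays of at least 1 line, and the adjustment ran over all 13733 genes in the test. CAV1 and CAV2 entered this test only through PC3, where they are high, and their LNCaP values were mostly surrogates, so they had to differ and their fit adds nothing to the bounds above (limma adjusted p = 0.00294 for CAV1 and 0.00157 for CAV2). PTRF by probe 1 differed by -0.53 (SE 0.15, limma adjusted p = 0.0544) and did not pass. Over 11 other settings the limma adjusted p of PTRF ran from 0.00502 to 0.616 and was under 0.05 in 5. The lowest of these came from the median of its probes, which takes in PC3 values of probe 2 that were not well above background. In this test 58.1% of all genes passed.

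The median log2 ratio of PC3 over LNCaP among genes measured on both control arrays was -0.12, and it moved to -0.56 when arrays were scaled on their median and to 0.39 when they were scaled on spike-in probes. Of the genes at least 2-fold apart, 52% were higher in PC3, against 32.3% and 75.4% under those scalings. CAV1 and CAV2 stayed higher in PC3 in the settings that kept the background call and gave a value, with bounds between 5.05 and 9.09 on the log2 scale. CAV2 had no value as the median of its probes, and CAV1 had none between the ATO arrays when bright local backgrounds were dropped. PTRF by its brightest probe or the median of its probes stayed lower in PC3, between -1.73 and -0.13, the lower end being the median of its probes. A difference of 2-fold was reached for PTRF between the controls in 2 of 10 settings.

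The next comparison asked whether ATO moved the coat genes within PC3. Of the 3 coat genes with a value, CAV1 was lower by at least 1.5-fold and CAV2 and PTRF did not reach 1.5-fold. Among all 13815 genes with a value 18.5% moved by 1.5-fold either way and 10.3% were lower. By the 1-spot probe CAV1 was 2.39-fold lower in PC3 ATO than in PC3 control (log2 ratio -1.26), which was matched or exceeded in that direction by 101 of 12513 genes measured on both arrays (0.807%). By the 10-spot probe it was 1.72-fold lower (log2 ratio -0.78 ± 0.11, SD from the spots).

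The 10-spot CAV1 probe gave 9.65 to 11.4 times the 75th percentile in PC3 control and 5.44 to 6.34 times in PC3 ATO. These ranges are over spots of 1 RNA sample per array. Of 649 probes with repeated spots that were measured on both PC3 arrays, 35 (5.39%) were lower by as much or more. The gap of 0.47 log2 between the CAV1 probes was reached by 15% of 2417 genes with at least 2 probes measured in PC3, for which the median gap was 0.17. The direction was the same in both probes and the size was not.

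CAV2 was 1.21-fold lower in PC3 ATO (log2 ratio -0.27 ± 0.09, SD from the spots), short of 1.5-fold. Its spots read 6.27 to 7.33 times the 75th percentile in PC3 control and 5.25 to 5.93 times in PC3 ATO, and 27.4% of the repeated probes were lower by as much or more. PTRF probe 1 was 1.16-fold higher in PC3 ATO (log2 ratio 0.22), and 26.9% of genes were higher by as much. PTRF probe 2, SDPR, PRKCDBP and EHD2 had no ratio in PC3.

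**Figure D2:**
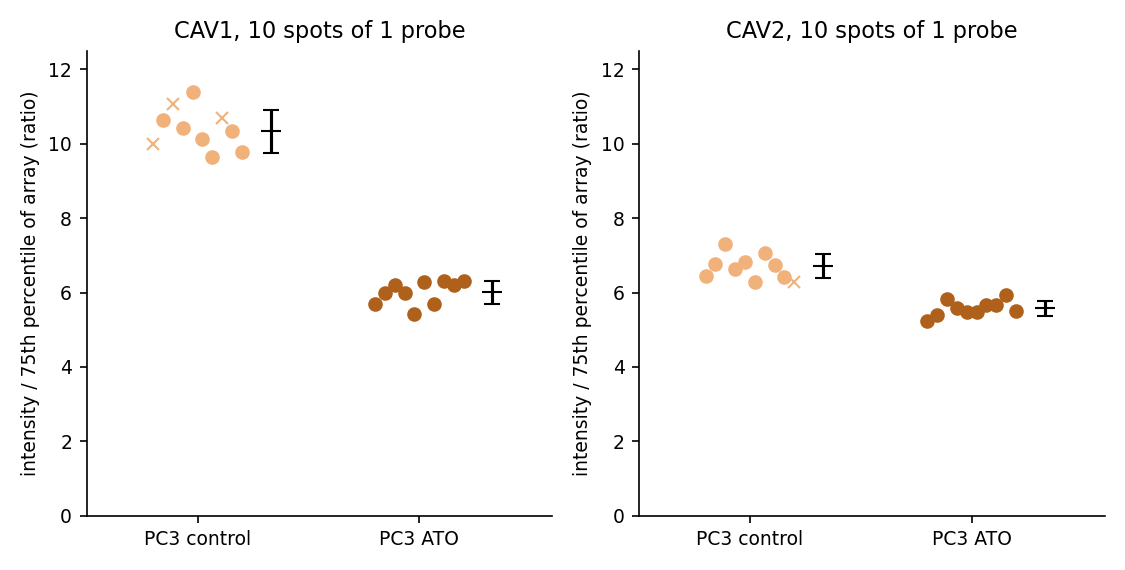
Intensity of each of the 10 spots of the repeated CAV1 probe and CAV2 probe on the PC3 control and PC3 ATO arrays, divided by the 75th percentile of the array, on a linear axis from 0. Crosses are spots with an outlier call, and bars are the mean and SD of the other spots, which come from 1 RNA sample per group. CAV1 spots lie between 9.65 and 11.4 in control and between 5.44 and 6.34 after ATO, and CAV2 spots between 6.27 and 7.33 and between 5.25 and 5.93.

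CAV1 stayed lower after ATO under each scaling and summary tried, with log2 ratios from -1.64 to -1.02, all past 1.5-fold. CAV2 stayed between -0.39 and -0.08 and PTRF probe 1 between 0.10 and 0.41 in the settings that gave them a value, neither past 1.5-fold. The median of all genes measured on both PC3 arrays was 0.01 in the values used here, 0.21 with scaling on the median and -0.11 with the spike-in probes. Of the genes moved by 1.5-fold, 44.4% were higher in PC3 ATO, against 70.3% and 27.6% under those scalings.

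**Figure D3:**
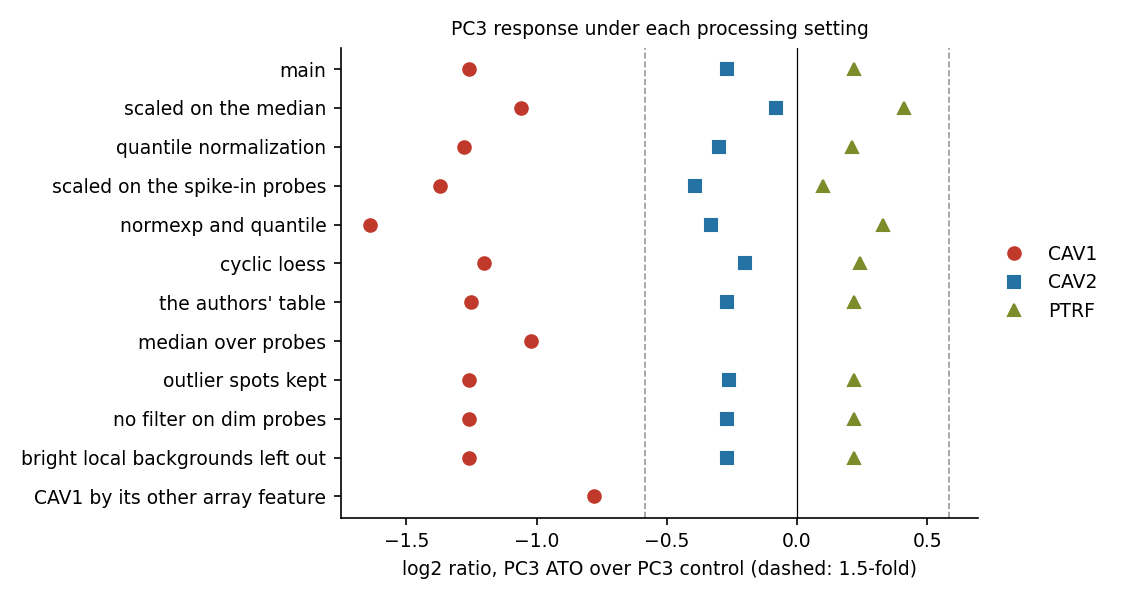
Log2 ratio of PC3 ATO over PC3 control for CAV1, CAV2 and PTRF probe 1 under each processing setting, 1 array per group. Dashed lines mark 1.5-fold. CAV1 lies left of the lower line in every setting, from -1.64 to -0.78, and CAV2 and PTRF lie between the lines.

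In LNCaP none of the coat genes changed by 1.5-fold after ATO among the 2 with a value, against 4.75% of 13739 genes. PTRF gave a log2 ratio of 0.00 by probe 1 and 0.07 by probe 2. The other was EHD2, with a bound under 1-fold. CAV1 and CAV2 were below the level called on both LNCaP arrays, so whether ATO moved them there was not detectable. The lower CAV1 value of PC3 therefore could not be tested as a difference between the lines.

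The treatment was tested over both lines with the line as a block (limma, 1 residual degree of freedom), for genes that passed the background call on the control arrays of both lines or the ATO arrays of both. PTRF was the only coat gene that entered, with a log2 difference of 0.11 (SE 0.14, limma adjusted p = 0.835). No gene passed (0 of 11902, 0%), and 532 (4.47%) had an unadjusted limma p under 0.05. CAV1 and CAV2 did not enter, so their PC3 values after ATO carry no p-value.

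The level of PTRF was looked at further because its probes disagree. The 7 probes that aligned with probe 1 belong to GBP6, ACBD7, ZNF713, TBXA2R, AK098115, TTC28 and FLJ39824, over 25 to 48 bases at 75% to 92% identity, each on the opposite strand. All 7 were well above background on all 4 arrays. Their log2 ratios of PC3 over LNCaP ran from -0.12 to 0.17 in the controls and from -0.09 to 0.24 after ATO, against -0.63 and -0.42 for PTRF probe 1. Probe 2, which aligned with none, had only bounds, because PC3 was below the level called, with log2 ratios of -0.52 or lower between the controls and -0.50 or lower between the ATO arrays. Which transcripts bound probe 1 was not tested, and the ratios of the 7 probes on the opposite strand cannot show it.

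**Figure D4:**
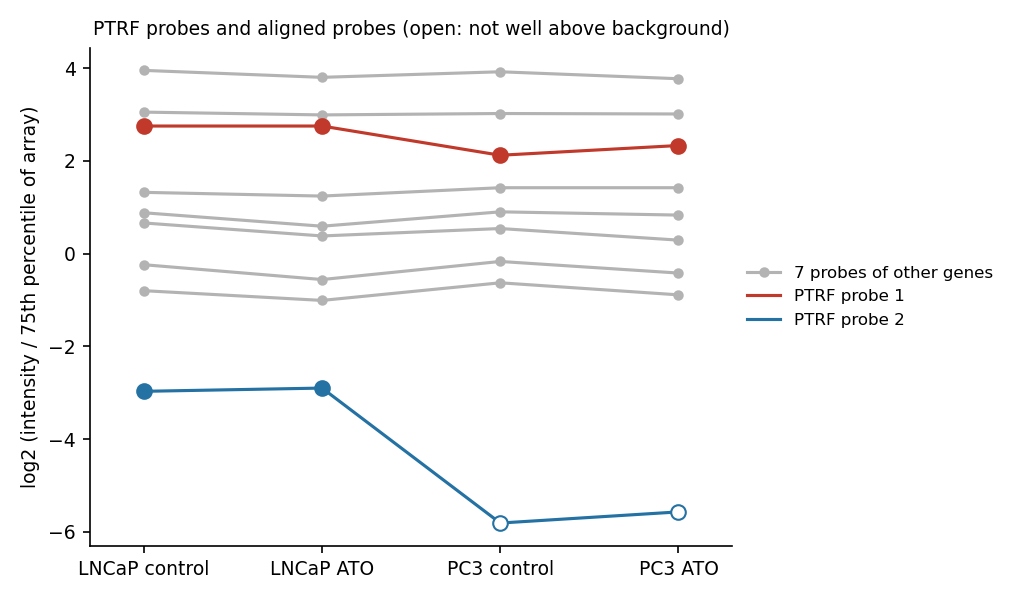
Log2 of intensity relative to each array's 75th percentile for both PTRF probes and for the 7 probes of other genes that aligned with probe 1, on the 4 arrays with 1 point each. Open points were not well above background. Probe 1 and the 7 aligned probes are well above background on all 4 arrays, while probe 2 goes from -2.97 and -2.90 in LNCaP to -5.81 and -5.57 in PC3.

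Markers of cells rich in caveolae were read on the same arrays. Of 7 fibroblast markers only COL1A1 was well above background, on all 4 arrays at 76.1 to 121 units, while COL1A2, COL3A1, DCN, LUM, PDGFRB and FAP were not on any. The summed fibroblast intensity was 123 in LNCaP control and 170 in LNCaP ATO, against 194 in PC3 control and 208 in PC3 ATO. The sums of this and the other marker groups include probes not well above background. They are therefore no measured levels, and a difference between sums is not read as one. None of the 3 adipocyte markers was well above background, with sums of 22.7 to 83.0 units. Endothelial markers summed to 233, 286, 536 and 578 units, with 1 to 3 of 6 well above background per array, and TEK and CLDN5 on none.

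Smooth muscle markers summed to 138, 196, 309 and 105 units in the same order, with 2, 1, 2 and 0 of 3 above background. MYH11 and ACTA2 were at least 2-fold and at least 2.75-fold lower in PC3 ATO than in PC3 control, where they read 111 and 153 units. The endothelial CDH5 was at least 4.22-fold lower, from 235 units, PECAM1 was 2.73-fold higher, and ROBO4 had a log2 ratio of -0.09. Among all genes with a value in PC3, 10.3% were lower by 1.5-fold and 18.5% moved either way. In LNCaP, ACTA2 was 1.58-fold higher after ATO, where 4.75% of all genes moved. Each of the 3 markers lower in PC3 ATO fell short of 1.5-fold there in 1 of the 8 or 9 settings. The part of such transcripts in the CAV1 values was not tested.

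CAV2 and CAV1 are neighbours on chromosome 7, and the genes around them were taken in the order of the GRCh38.p14 annotation. TES, a focal adhesion gene before CAV2, was 3.7-fold higher in PC3 control than in LNCaP control. MET, the receptor for hepatocyte growth factor that follows CAV1, read 8.48 and 13.9 units in LNCaP control and ATO and 8010 and 5872 in PC3 control and ATO. It was at least 247-fold higher in PC3 control and, like the caveolins, well above background in PC3 only. CAPZA2, the next gene, differed by 1.06-fold, and ST7 was 5.18-fold lower in PC3.

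Further on, WNT2 and CFTR were not well above background on any array and ASZ1 had a bound under 1-fold. Of the 5 neighbours with a value between the controls 2 were thus higher in PC3 and 1 lower, where 39.6% of all genes were apart either way, with a median log2 ratio of 0.09 against -0.05 for all genes. After ATO in PC3 none of the 4 neighbours with a value reached 1.5-fold, where 18.5% of all genes did. MET had a log2 ratio of -0.40. CAV1 was the only gene of this stretch to reach 1.5-fold.

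**Figure D5:**
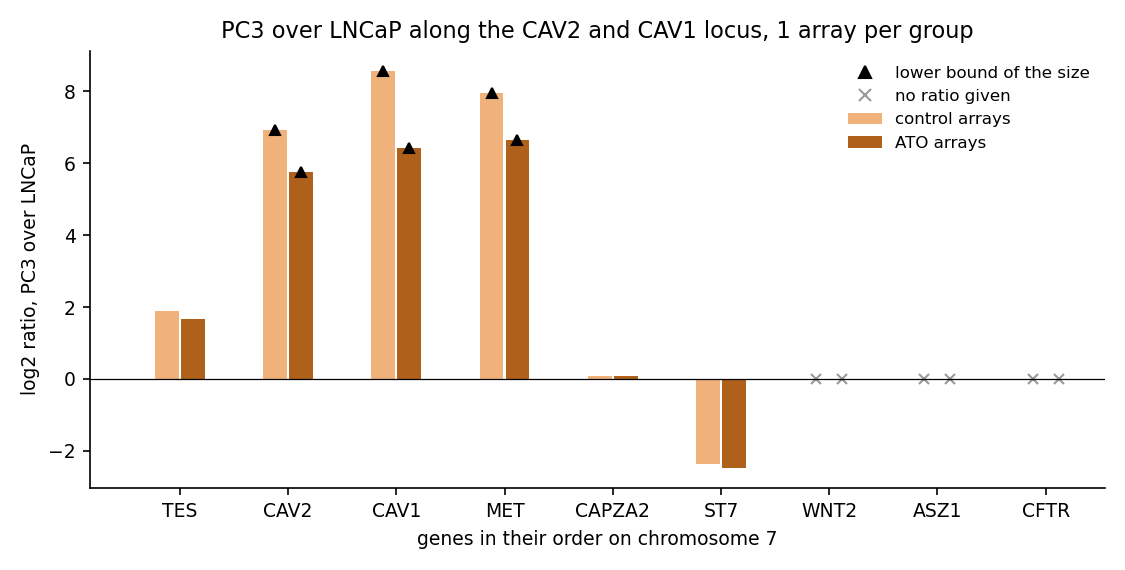
Log2 ratio of PC3 over LNCaP for 9 genes in their order on chromosome 7, on the control arrays and on the ATO arrays, 1 array per group. Triangles mark lower bounds of the size where LNCaP was not well above background, and crosses genes with no ratio. The bars of CAV2, CAV1 and MET stand together between 5.76 and 8.58, with TES at 1.89 and 1.67, CAPZA2 at 0.09 and ST7 at -2.37 and -2.48.

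Genes of proteins that work with the coat were described by the same counts. In the accessory group, 9 of 11 genes had a value between the controls, of which 4 were higher and 2 lower in PC3 at 2-fold, with a median log2 ratio of 0.51, against 39.6% of all genes apart either way, 20.6% higher in PC3, and a median of -0.05. EHD1, the endosomal relative of EHD2, was 10.0-fold higher in PC3, the actin crosslinker FLNA, whose protein binds caveolin-1, 5.21-fold, the receptor ROR1, known to scaffold cavin-1 and caveolin-1, 3.66-fold, and EHD4 3.57-fold. PACSIN2, a membrane-bending protein of caveolae, was 3.36-fold lower in PC3, and PACSIN1, its neuronal relative, 4.55-fold lower. CAV3 and MURC, the muscle caveolin and cavin, were not well above background on any array. After ATO none of the 9 reached 1.5-fold in either line, with medians of 0.06 in each. Of all genes 18.5% did so in PC3 and 4.75% in LNCaP.

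Flotillins build another kind of cholesterol-rich membrane domain. FLOT1 and FLOT2 had values on all arrays, and neither was 2-fold apart between the lines or 1.5-fold after ATO. Over all genes 39.6% were apart between the controls and 39.3% between the ATO arrays. After ATO 18.5% of genes moved in PC3 and 4.75% in LNCaP. Each flotillin passed 2-fold between the controls in 1 of 10 settings, and FLOT1 between the ATO arrays in 3 of 10. Of the clathrin coat, the other main route of uptake, 8 of 9 genes had a value. Only AP2A2, a subunit of the AP2 adaptor, differed between the controls, where 39.6% of all genes did. It was 2.72-fold lower in PC3 and past 2-fold in 9 of 10 settings. CLTB, a clathrin light chain, had a log2 ratio of 0.95 there and passed 2-fold, higher in PC3, in 4 of 10 settings, and AP2A1 and AP2M1 in 1 of 10 each. CLTB was the only clathrin coat gene past 1.5-fold in PC3 after ATO, where 18.5% of all genes were. It was 1.62-fold lower, and short of 1.5-fold when arrays were scaled on their median.

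Among kinases that act on or bind caveolins and cavins, SRC (2.12-fold), FYN (at least 29.3-fold) and PRKCA (2.43-fold) were higher in PC3 control than in LNCaP control, 3 of 6 with a value, where 20.6% of all genes were higher. SRC and FYN phosphorylate caveolin-1. SRC fell short of 2-fold in 2 of 10 settings and PRKCA in 1 of 9, while YES1 passed it in 3 of 10 and ABL1, lower in PC3, in 2 of 10. After ATO in PC3, 2 of the 6 kinases moved by 1.5-fold, both higher. Of all 13815 genes with a value there, 18.5% moved either way and 1133 were higher. PRKCA was 2.12-fold higher and PRKCD, whose product binds cavin-3, 2.04-fold higher, from 1041 to 2137 and from 1376 to 2720 units. Both stayed past 1.5-fold in every setting. The corresponding log2 ratios in LNCaP were 0.06 and -0.08.

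The genes most like CAV1 over the 4 arrays were found among the 1069 genes (3.93% of 27224) that shared its calls, well above background in PC3 only. Values were floored at the lowest level called on each array and centred on the gene's mean, and likeness was the distance over 4 values in log2 units. The nearest were G0S2 (0.30), AXL (0.45), CNN3 (0.53), FOSL1 (0.55) and SRGN (0.55). G0S2 read 6.34, 13.6, 10350 and 3979 units in LNCaP (control, ATO) and PC3 (control, ATO), and was lower after ATO in PC3 by a log2 ratio of -1.33. The LNCaP values of CAV1 and of these nearest genes lay under the floor. Their likeness therefore rested on the PC3 values, so the fall of G0S2 is part of how it was chosen. CAV2 came in place 43 at a distance of 1.35. Of the 1069 genes 15.9% were lower by 1.5-fold after ATO in PC3, and their median log2 ratio was 0.04.

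CAV1 and CAV2 were measured in the same arrays and their promoters are shown because both were high in PC3 alone. The 250 bases before the first RefSeq start of each gene (GRCh38.p14, plus strand) are printed, with motif matches in capitals. CAV2 lies at chr7:116499488-116499737 and CAV1 at chr7:116524759-116525008.
CAV2 promoter: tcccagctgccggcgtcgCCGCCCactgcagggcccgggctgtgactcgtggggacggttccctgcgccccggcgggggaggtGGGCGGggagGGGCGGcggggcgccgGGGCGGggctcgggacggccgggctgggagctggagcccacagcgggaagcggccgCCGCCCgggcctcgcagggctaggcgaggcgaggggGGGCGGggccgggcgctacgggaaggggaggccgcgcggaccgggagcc
CAV1 promoter: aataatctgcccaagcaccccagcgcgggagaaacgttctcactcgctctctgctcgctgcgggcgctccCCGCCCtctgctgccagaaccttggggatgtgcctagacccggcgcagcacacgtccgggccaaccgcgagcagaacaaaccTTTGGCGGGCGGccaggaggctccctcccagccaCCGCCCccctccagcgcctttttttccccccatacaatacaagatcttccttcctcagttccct

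The motifs searched on both strands were the GC box GGGCGG, the sterol regulatory element TCACNCCAC, the TEAD motif GGAATG, the E2F-like motif TTTGGCG and the TATA box TATAAA. The table of RefSeq windows used here held 7 windows of 300 bases for 4 of the 6 genes, CAV1, CAV2, SDPR and EHD2, and the promoters of PTRF and PRKCDBP were not analysed here. The GC box was found 6 times in the CAV2 window above and 3 times in the CAV1 window, and is held by 45% of 35116 windows of that length. The E2F-like motif was found 1 time in the CAV1 window, sharing a base with a GC box, and is held by 1.92% of windows. CAVIN2 (SDPR) held 1 TEAD motif (14% of windows) and EHD2 1 GC box. The sterol regulatory element (1.13% of windows) and the TATA box (11.5%) were found in none of the 7. G and C made up 82.7% of the CAV2 window and 62.3% of the CAV1 window, against a median of 58.7%. A match describes the letters of the window and no binding was measured.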

How the data were processed

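Of each of the 4 samples, total RNA was labelled and hybridised to an Agilent array. The authors deposited scanner files from Agilent Feature Extraction 9.5.3.1 with the processed intensity of each spot, which per the file headers is background-subtracted, detrended and replaced by a surrogate where not above background. They also deposited a table of the ratio of each probe to the 75th percentile of its array, used as an alternative.

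Here spots with outlier calls were left out, log2 intensities were averaged per probe, and the log2 of the array's 75th percentile was subtracted. The brightest probe stood for each gene (27224 genes). Differences were counted at 1.5-fold (ATO) and 2-fold (lines) in genes well above background on at least 1 array, with no p-value. limma 3.58.1 in R 4.3.3 (lmFit, eBayes, two-sided, Benjamini-Hochberg over all genes) tested line and treatment over the 4 arrays. The fit was also run on simulated data with equal noise in every gene, which does not check it on these arrays. Probes were aligned with blastn 2.17.0. Members and gene lists were chosen with earlier results of these data known. The named genes were the 6 coat genes, listed genes that were called or that a count needed, and the 5 nearest to CAV1. Alternatives were other scalings and normalizations, probe summaries, filters, thresholds and the other probe of a gene. The number of arrays limits the precision. A few marker genes and a probe sequence are not reported here.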

Additional observations from a re-analysis of the deposited data

How the results depend on the processing

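Limits are set by 1 array per group: differences after ATO, and the size of the CAV1 change, have no spread between cultures behind them, and CAV1 and CAV2 in LNCaP have bounds only. The bound depends on the lowest intensity called on the LNCaP array. Without a filter on dim probes, 3 coat genes instead of 1 were counted as changed in PC3, 5 instead of 0 in LNCaP and 4 instead of 2 between the ATO arrays, since values below background then count as levels. When spots with a bright local background were dropped, 1 instead of 2 was apart between the ATO arrays, because the 1-spot CAV1 probe was dropped. Alternatives chosen after seeing the data used the other probe of a gene: with the dim CAV2 probe 1 coat gene instead of 2 was apart between the controls and 1 between the ATO arrays. The other probe of CAV1 or PTRF changed no count by over 1.5 times. Of 78 counts recomputed, 72 stayed within 1.5 times and 6 moved. Of 121 log2 ratios of single genes under alternatives, 79 moved by at most 0.14, 42 moved further and 0 reversed. Only a ratio past its fold threshold in the values used here could count as reversed. The PTRF log2 ratio in LNCaP, 0.00 in those values, ran from -0.03 to 0.14 and so took both signs. Over all genes, the treatment test passed 0 genes, 5 with scaling on the median and 16 with the spike-in probes, none of them a coat gene, and the line test 7985, or 4518 of 27224 without the background filter. In PC3 the 1.5-fold count of 2552 became 4955 without that filter and 1665 with normexp, and in LNCaP the count of 653 became 11684, 385 and, without bright local backgrounds, 389. In LNCaP 58.2% of these were higher, 75.4% with the spike-in probes, 88.8% without the filter, 46% with normexp and 46.5% without bright backgrounds, and between the ATO arrays 45.6% were higher in PC3, 34.7% with scaling on the median and 58.8% with the spike-in probes. With 1 array per group and no replicate numbers in the labels, arrays could be paired only by line or by treatment. The limma fits had the line or the treatment as their block.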
